A study of Mus musculus with 7 samples.

Results

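The progesterone receptor gene *Pgr* and 9 other genes of nuclear hormone receptors, *Esr1*, *Nr3c1*, *Rara*, *Rxra*, *Rxrb*, *Thra*, *Vdr*, *Nr1h2* and *Ppard*, were followed in the bone marrow of mice with and without HRP-2. The 10 genes were taken by symbol from the 25033 genes listed for each mouse, and they are part of 49 listed genes of the nuclear receptor superfamily. They were chosen by their reads and CPM in these same WT and KO mice, with the difference between genotypes already known, so that difference is described below and carries no test. The cells were lineage-depleted (lin-) bone marrow cells, which are what remains after mature blood cells have been captured by their surface markers. RNA was available from 3 wild type (WT) and 4 knockout (KO) mice. The knockout allele was C57BL/6N-Hdgfrp2<tm1b (KOMP)Wtsi>/Tcp, a systemic loss of *Hdgfl2* (*Hdgfrp2*, the gene of HRP-2) in every cell of the animal rather than in blood cells alone, and marrow was taken from femur and tibia at 6 to 8 weeks of age. No treatment was applied, and no litter or sex was given for the mice. The comparison asked how the loss of HRP-2, a chromatin reader related to LEDGF/p75, changed gene expression in blood progenitors.

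Nuclear hormone receptors are transcription factors that carry a DNA-binding domain with zinc fingers and a pocket for a small lipid-soluble ligand. Steroid receptors such as those for progesterone, estrogen and glucocorticoid are held by chaperones until hormone binds and then act as homodimers. The receptors for retinoic acid, thyroid hormone, vitamin D, oxysterols and fatty acids sit on DNA mostly as heterodimers with a retinoid X receptor (RXR), bound to corepressors without ligand and to coactivators with it. In bone marrow, retinoic acid receptors are known for their part in granulocyte maturation, glucocorticoid receptor for stress erythropoiesis and for the death of lymphocytes, and estrogen receptor alpha for the cycling of blood stem cells. In the uterus and the breast, *Pgr* is a textbook target of estrogen receptor alpha.

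The promoters of *Pgr* and *Esr1* are shown because *Pgr* had by far the largest difference between genotypes of the 10 genes and *Esr1* encodes its known activator. They are RefSeq sequences of build GRCm38.p6, on the plus strand, from 250 bases before to 50 after an annotated start, in lower case with any GGGCGG, the letters of a GC box, in capitals.
Pgr, chr9:8899583-8899882: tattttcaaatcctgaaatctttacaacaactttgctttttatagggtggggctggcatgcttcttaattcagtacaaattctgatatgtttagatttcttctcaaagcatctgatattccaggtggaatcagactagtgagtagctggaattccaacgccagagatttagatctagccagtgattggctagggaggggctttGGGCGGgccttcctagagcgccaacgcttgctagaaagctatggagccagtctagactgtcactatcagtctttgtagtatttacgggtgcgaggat
Esr1, chr10:4611739-4612038: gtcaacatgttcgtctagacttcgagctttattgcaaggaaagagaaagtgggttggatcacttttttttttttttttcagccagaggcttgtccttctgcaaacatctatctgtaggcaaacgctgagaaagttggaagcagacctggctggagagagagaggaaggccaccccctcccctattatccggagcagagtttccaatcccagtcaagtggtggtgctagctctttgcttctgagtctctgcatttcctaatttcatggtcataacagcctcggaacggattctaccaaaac
The *Pgr* window held 1 GGGCGG, at position 204 counted from its 5′ end, and neither of the *Esr1* windows held any. AGGTCA, the core motif of estrogen, thyroid hormone and RXR-partner receptors, and AGAACA, the core motif of progesterone and glucocorticoid receptors, were searched for on both strands along with GGGCGG, and no motif shares letters with another in either window. Of the 10 genes, 8 had windows in RefSeq, 14 in all, some of which overlap each other, and *Nr3c1* and *Thra* had none. AGGTCA was present in windows of *Rxra* and *Rara* only, against 16.3% of all 32851 windows, AGAACA in none of the 14, against 19% of all windows, and GGGCGG in 9 windows from 6 genes, against 35.7% of all windows.

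Each library held between 3525665 and 5605158 reads on genes. Levels are CPM, which are read counts divided by the library size in units of 1e+06 reads after TMM scaling, and since the library method gives 1 fragment per transcript, CPM of different genes were compared without dividing by length. A count of 3 reads, the limit that a count of 0 allows, stood for 0.561 to 0.840 CPM. *Hdgfl2* had 50.0, 43.7 and 44.6 CPM in the WT mice and 2.53, 0.623, 1.49 and 0.498 CPM in the KO mice (two-sided exact permutation test, p = 0.0286, the smallest the 35 splits of 7 mice can give), so every KO library was below every WT library in the targeted gene. KO replicate 3 had 0.561 CPM of *Xist* against 229 to 303 CPM in the 6 other mice, and 104 CPM of the Y-linked *Ddx3y*. KO replicate 4 had 1201 CPM summed over 13 stromal and endothelial markers against 210 to 278 CPM in the others, and 942 CPM over 8 megakaryocyte markers against 108 to 385 CPM. The progenitor markers *Kit* (357 to 556 reads), *Cd34* (729 to 1518 reads) and *Flt3* (151 to 362 reads) were present in every library, while the adult globin genes *Hba-a1*, *Hbb-bt* and *Hbb-bs* had no read in any. The 12 erythroid markers, these globins included, summed to 363 to 678 CPM. *Mpo*, of neutrophil precursors, was at 4746 to 6810 CPM.

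All 10 receptor genes passed the filter on low counts, and none was at 0 reads in any library. By edgeR's quasi-likelihood test over 11265 genes, 0 of the 10 were called at an adjusted p under 0.25, against 0.0178% of all genes tested, and 1 of the 10 was under an unadjusted p of 0.05, against 3.63% of all genes. DESeq2 and limma-voom also called 0, and DESeq2 gave 5 of the 10, *Pgr* included, no adjusted p. These counts come from the values that chose the genes, and nothing is read from them or from the shares beside them. The WT and KO mice did not overlap in 1 of the 10, *Pgr*, against 5.16% of all genes tested, and against 2.79% that were lower in every KO mouse as *Pgr* was. Fitted log2 fold changes, KO over WT, were above 0 for 5 genes and below 0 for 5, with a median of 0.07 beside -0.0014 over all genes tested, and 8 of the 10 were smaller than 2 standard errors. Without *Pgr* they ran from -0.10 to 0.71.

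**Figure D1:**
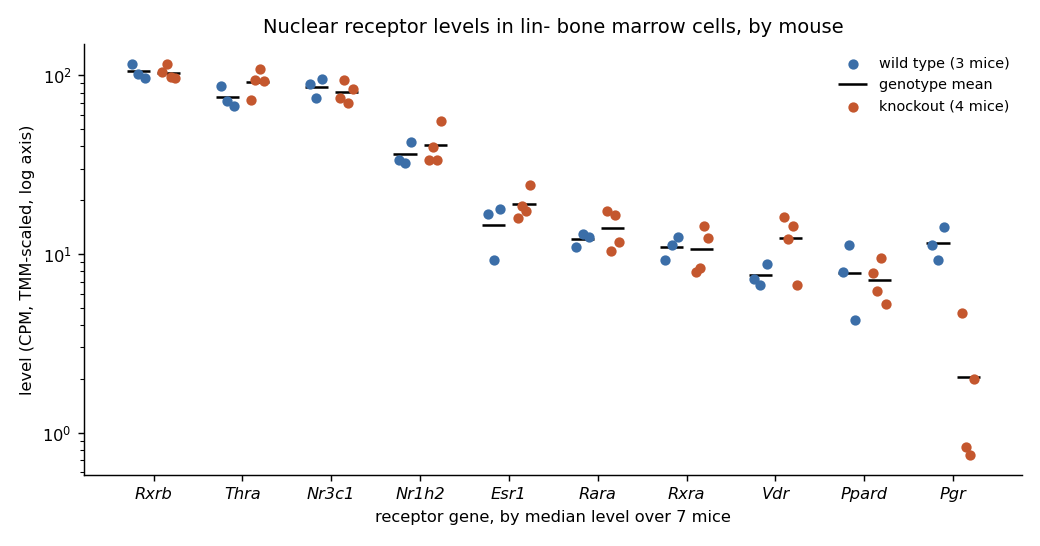
Level of each receptor gene in CPM on a log axis, in order of its median over 7 mice, with 1 point per mouse coloured by genotype. *Pgr* at the right end is the gene in which the KO mice (0.747 to 4.66 CPM) lie apart from the WT mice (9.24 to 14.1 CPM).

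In GRCm38, *Pgr* lies on chromosome 9 (8899833-8968611, plus strand), *Esr1* on chromosome 10 (4611593-5005614, plus), *Rara* and *Thra* on chromosome 11 (98927818-98974942 and 98740638-98769006, both plus), *Rxra* on chromosome 2 (27676440-27762957, plus), *Vdr* on chromosome 15 (97854425-97910630, minus), *Nr1h2* on chromosome 7 (44549616-44553951, minus), and *Rxrb* and *Ppard* on chromosome 17 (34031812-34038399 and 28232700-28301474, both plus). *Hdgfl2* itself is also on chromosome 17 (56079634-56100607, plus).

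Among the steroid receptors, *Pgr* was the gene whose KO and WT mice did not overlap, with the KO mice lower. The WT mice had 51, 33 and 53 reads of *Pgr*, which are 11.2, 9.24 and 14.1 CPM. The KO mice had 24, 4, 4 and 8 reads, which are 4.66, 0.831, 0.747 and 1.99 CPM. Every KO mouse was below every WT mouse, and within the KO mice replicate 1 stood highest while replicates 2 and 3 lay near the level of 3 reads. The mean was 11.5 ± 2.44 CPM (SD, n = 3) in WT and 2.06 ± 1.83 CPM (SD, n = 4) in KO, a ratio of 5.59, and the fitted log2 fold change was -2.46 (SE 0.52). Pooled over mice, 137 reads in WT gave 11.5 CPM (95% exact Poisson interval 9.67 to 13.6) and 40 reads in KO gave 2.07 CPM (1.48 to 2.82). The mice next to each other across the genotypes were KO replicate 1, with an interval of 2.99 to 6.94 CPM, and WT replicate 2, with an interval from 6.36 CPM upwards, so these 2 intervals overlapped. Such intervals cover counting error only. The *Pgr* fold was -3.29 without KO replicate 1, -2.04 without KO replicates 3 and 4 together, and between -2.79 and -2.25 in the fits by other tools, scalings and filters on all 7 mice. In bulk RNA, fewer cells that express a receptor and less of its RNA in each cell cannot be told apart.

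**Figure D2:**
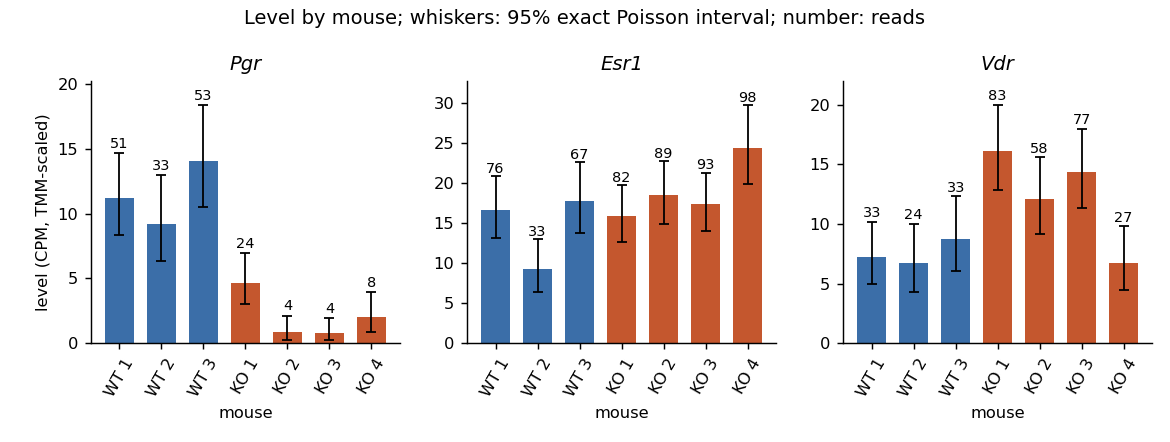
Level in CPM of *Pgr*, *Esr1* and *Vdr* in each mouse as bars, with 95% exact Poisson intervals as whiskers and the number of reads above each bar. The upper limits of *Pgr* in KO replicates 2 and 3 (2.13 and 1.91 CPM) are below the lower limits of every WT mouse (6.36 CPM and more). The interval of KO replicate 1 (2.99 to 6.94 CPM) overlaps that of WT replicate 2. The intervals cover counting error only, and *Pgr* was chosen by this same difference.

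**Figure D3:**
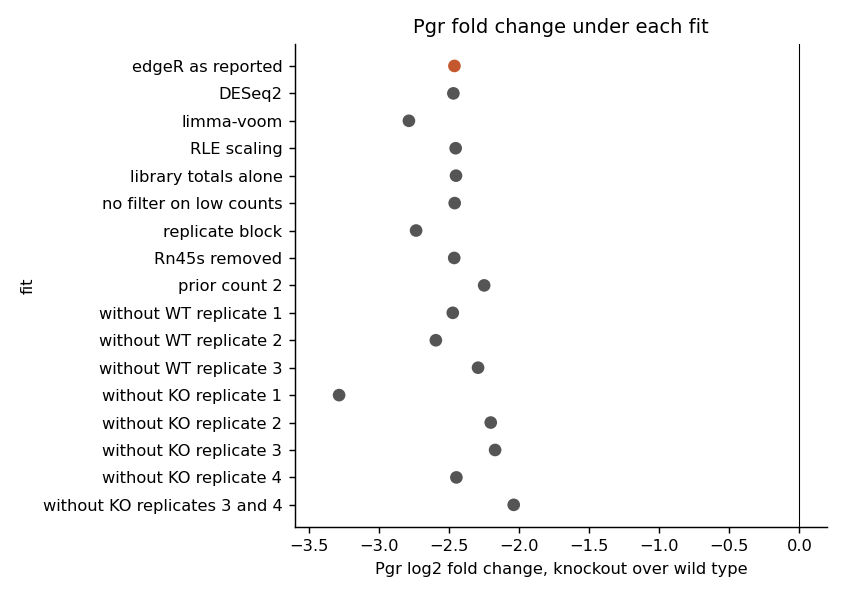
Fitted log2 fold change of *Pgr*, KO over WT, in each fit, with the reported edgeR value at -2.46 in colour. Every fit lies between -3.29 and -2.04, left of the line at 0. Since every KO mouse lay below every WT mouse, leaving mice out could not turn the sign.

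*Esr1*, which encodes estrogen receptor alpha, had 76, 33 and 67 reads in WT and 82, 89, 93 and 98 reads in KO mice. These are 16.7, 9.24 and 17.8 CPM in WT and 15.9, 18.5, 17.4 and 24.4 CPM in KO. The genotypes overlapped, with WT replicate 2 the lowest mouse and KO replicate 4 the highest. The mean was 14.6 ± 4.65 CPM (SD, n = 3) in WT mice and 19.1 ± 3.72 CPM (SD, n = 4) in KO mice, with a log2 fold change of 0.38 (SE 0.27) that was 0.14 without WT replicate 2 and 0.24 without KO replicate 4. *Esr1* and *Pgr* stood at the same level, 9.24 CPM, in WT replicate 2, and *Esr1* was the higher in every other mouse. In WT replicates 1 and 3 *Esr1* was at 16.7 and 17.8 CPM and *Pgr* at 11.2 and 14.1 CPM. In KO replicate 4, the mouse with the highest *Esr1*, *Esr1* was at 24.4 and *Pgr* at 1.99 CPM.

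*Nr3c1*, the glucocorticoid receptor (chromosome 18, 39410545-39519421, minus strand), was the steroid receptor with the highest level. It had 89.1, 74.8 and 94.9 CPM in the WT and 74.6, 93.7, 70.1 and 83.5 CPM in the KO mice. The ranges of the genotypes were nearly the same, and the log2 fold change of -0.10 was smaller than its standard error of 0.15.

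The retinoid receptors differed in level far more than they differed between genotypes. *Rxrb*, the RXR with the highest level, had 116.3, 102.2 and 97.0 CPM in WT and 104.0, 116.2, 97.4 and 96.4 CPM in KO mice, with overlap and a log2 fold change of -0.02 (SE 0.14). *Rxra* had 42, 40 and 47 reads in WT and 41, 40, 77 and 49 reads in KO mice. That is 9.21, 11.2 and 12.5 CPM against 7.97, 8.31, 14.4 and 12.2 CPM, with KO mice at both ends of the range. Its log2 fold change was -0.03 (SE 0.31), and -0.42 without KO replicates 3 and 4. *Rara*, the retinoic acid receptor alpha that pairs with them, had 50, 46 and 47 reads in WT and 90, 50, 88 and 47 reads in KO mice. In CPM these are 11.0, 12.9 and 12.5 in WT and 17.5, 10.4, 16.4 and 11.7 in KO. KO replicates 1 and 3 were above all WT mice and KO replicates 2 and 4 were not, and the log2 fold change was 0.22 (SE 0.28), or 0.09 to 0.34 with each mouse left out in turn, lowest without KO replicate 1 and highest without KO replicate 2. The SD of *Rara* was 1.01 CPM among the WT mice and 3.48 CPM among the KO mice.

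*Vdr*, the vitamin D receptor, had the largest positive fold of the 10 genes. It had 33, 24 and 33 reads in WT and 83, 58, 77 and 27 reads in KO mice, which are 7.24, 6.72 and 8.77 CPM and 16.1, 12.1, 14.4 and 6.73 CPM. Of the KO mice, 3 were above every WT mouse, and KO replicate 4, the library with the high stromal and megakaryocyte sums, lay within the WT range. The mean was 7.58 ± 1.06 CPM (SD, n = 3) in WT and 12.3 ± 4.09 CPM (SD, n = 4) in KO, with a log2 fold change of 0.71 (SE 0.34). It ran from 0.56 to 0.90 when each mouse was left out in turn.

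*Thra*, the thyroid hormone receptor alpha, had 86.7, 71.7 and 67.5 CPM in WT and 72.7, 93.5, 108.0 and 92.7 CPM in KO mice. KO replicates 2, 3 and 4 were above all WT mice and KO replicate 1 was not, and the log2 fold change was 0.28 (SE 0.16), or 0.14 without KO replicates 3 and 4. *Thra* shares 263 exonic bases with *Nr1d1* on the opposite strand. Which strand was counted is not stated. *Nr1d1* had 158 reads over all mice and *Thra* 2679, and the effect of the shared bases on either count was not tested. No other of the 10 genes shares exonic bases with another gene in GENCODE M21.

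The remaining pair sense lipids. *Nr1h2*, the oxysterol receptor LXR beta, had 33.3, 32.5 and 42.2 CPM in WT and 33.6, 39.7, 33.6 and 55.3 CPM in KO mice. KO replicate 4 was the only KO mouse above the WT range, and the log2 fold change was 0.17 (SE 0.21), or -0.02 without that mouse. *Ppard*, the fatty acid receptor PPAR delta, had 36, 40 and 16 reads in WT and 40, 30, 51 and 21 reads in KO mice, or 7.90, 11.2 and 4.25 CPM and 7.77, 6.23, 9.53 and 5.23 CPM. The KO mice lay within the WT range, and the log2 fold change of -0.10 was smaller than its standard error of 0.39.

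Ordered by the median over 7 mice, the levels ran from *Rxrb* through *Thra*, *Nr3c1*, *Nr1h2*, *Esr1*, *Rara*, *Rxra*, *Vdr* and *Ppard* to *Pgr*. The rank mixes the genotypes, and it places *Pgr* last because of the KO mice: the median of *Pgr*, 4.66 CPM, was that of KO replicate 1. Among the WT mice alone the mean of *Pgr*, 11.5 CPM, stood above those of *Rxra* (11.0 CPM), *Ppard* (7.78 CPM) and *Vdr* (7.58 CPM), while among the KO mice its mean of 2.06 CPM was the lowest, below *Ppard* at 7.19 CPM. The 9 neighbouring pairs were ranked on the same values, so their ratios within mice are descriptions with no test. *Nr3c1* was 2.17-fold above *Nr1h2* (mean log2 ratio 1.12 ± 0.26, SD, n = 7) and *Nr1h2* 2.28-fold above *Esr1* (1.19 ± 0.29, SD, n = 7), each in 7 of 7 mice. *Rxrb* was 1.24-fold above *Thra* in 6 of 7 mice (0.31 ± 0.26, SD, n = 7). *Thra* and *Nr3c1* did not differ beyond their spread (0.02 ± 0.33, SD, n = 7), with *Thra* higher in 2 of 7 mice. The lower genes from *Esr1* to *Ppard* followed each other in steps of 1.09-fold to 1.36-fold, each in 4 or 5 of 7 mice and each smaller than its SD on the log2 scale. *Ppard* was above *Pgr* in 5 of 7 mice, the exceptions being WT replicates 1 and 3.

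Of the 39 other nuclear receptors listed, 14 passed the filter, 25 stayed below it with at most 23 reads in any library, and 9 of these had no read in any mouse. By edgeR 0 of the 14 were called, 8 had a fold above 0 and 6 below, and the median log2 fold change was 0.06. At an unadjusted p under 0.05 there were 1 higher and 1 lower, against 3.63% of all genes tested. Limma-voom called 0 of the 14, and DESeq2 called 1, *Nr4a2*, among the 16 of 16378 genes it called in all. *Nr4a2* (Nurr1) is an orphan receptor and immediate early gene with no known natural ligand of the usual kind. It had 67.6, 39.5 and 26.0 CPM in WT and 72.7, 88.7, 102.2 and 84.5 CPM in KO mice, without overlap, with a log2 fold change of 0.96 (SE 0.25, edgeR adjusted p = 0.811). Its adjusted p was 0.0980 by DESeq2, 0.000238 without the filter and 0.0277 without WT replicate 1, where its log2 fold change was 1.42, and ran from 0.000238 to 1 over all alternatives. The related *Nr4a1* had a log2 fold change of 0.36 (SE 0.21) with overlap. It was 0.19 to 0.60 with each mouse left out, and 0.085 without KO replicates 3 and 4. *Nr1h3*, LXR alpha and the counterpart of *Nr1h2*, had 20, 8 and 25 reads in WT and 1, 9, 15 and 4 reads in KO mice, with a log2 fold change of -1.56 (SE 0.67, edgeR adjusted p = 0.999). Without KO replicate 3 *Nr1h3* did not pass the filter, and without any other single mouse its fold was -1.87 to -1.16.

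**Figure D4:**
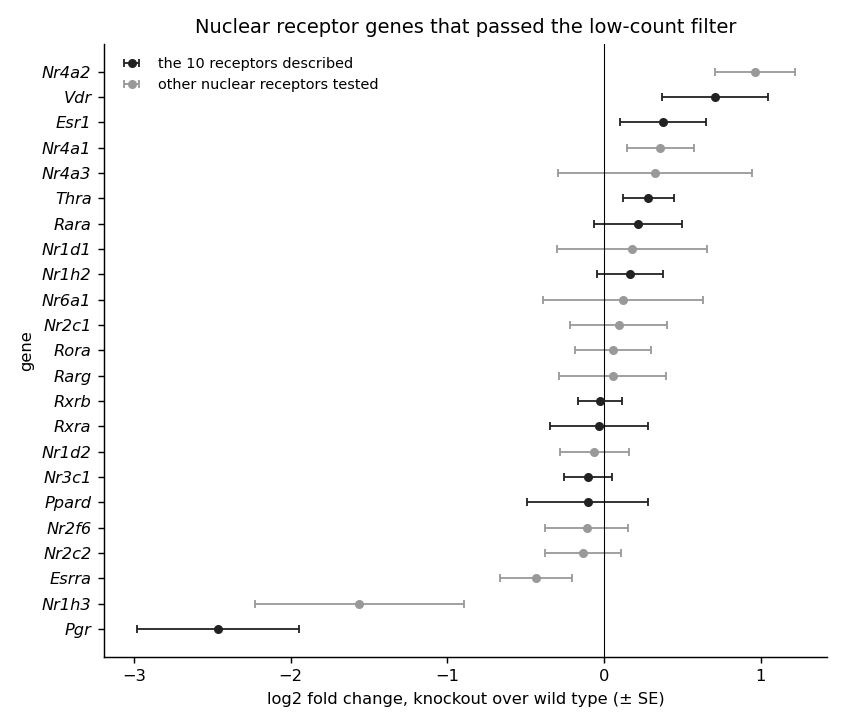
Log2 fold change, KO over WT, with its standard error for 23 of the 24 nuclear receptor genes that passed the low-count filter, with the 10 genes of the report and the others in separate colours. *Pgr* (-2.46) is farthest left and *Nr4a2* (0.96) farthest right.

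The proteins that receptors work with showed no called gene by edgeR, DESeq2 or limma-voom. Of 28 coregulators 26 were tested, 13 with a fold above 0 and 13 below, with a median log2 fold change of -0.01, and 2 had an unadjusted p under 0.05, both higher, against 3.63% of all genes tested in either direction. One was *Prmt1*, an arginine methyltransferase and coactivator, at 359 to 487 CPM in WT and 522 to 532 CPM in KO mice (log2 fold change 0.32, SE 0.13, edgeR adjusted p = 0.999). The other was *Lcor*, a ligand-dependent corepressor, at 29 reads in all WT and 112 reads in all KO mice (log2 fold change 1.22, SE 0.55, edgeR adjusted p = 0.999, and 0.65 on the log2 scale without KO replicates 3 and 4). All 11 chaperones and immunophilins that hold steroid receptors had a fold above 0, with a median of 0.15, and 0 had an unadjusted p under 0.05. Without KO replicate 3 the fold was above 0 for 6 of the 11 and below for 5, with a median of 0.00017. *Ppid* (cyclophilin 40), at 89.9 ± 5.96 CPM (SD, n = 3) in WT and 105 ± 3.70 CPM (SD, n = 4) in KO mice, was the only 1 of them without overlap (log2 fold change 0.23, SE 0.14). Over all genes tested 5.16% did not overlap.

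Genes that make, convert or carry the ligands were tested for 25 of 47 listed, and 0 were called by edgeR, DESeq2 or limma-voom or had an unadjusted p under 0.05. Over all genes tested edgeR called 0.0178%, and 3.63% had an unadjusted p under 0.05. Of the 25, 14 had a fold above 0 and 11 below (median 0.05, or 0.0015 to 0.11 with each mouse left out). *Star*, which brings cholesterol into mitochondria for steroid synthesis, had 21, 15 and 18 reads in WT and 10, 11, 20 and 8 reads in KO mice, a log2 fold change of -0.85 (SE 0.50). *Rdh10*, which oxidises retinol on the way to retinoic acid, was at 9.43 to 10.6 CPM in WT and 12.5 to 14.4 CPM in KO mice, a log2 fold change of 0.42 (SE 0.27). *Rdh11* went the other way, at 30.3 to 34.4 CPM in WT and 25.2 to 27.0 CPM in KO mice (-0.30, SE 0.19). Of 8 genes of retinoid metabolism tested, 4 had a fold above 0 and 4 below. Progesterone and estrogen also have receptors outside the nuclear family. Of 8 such genes listed, 6 were tested, 0 were called by edgeR, DESeq2 or limma-voom or had an unadjusted p under 0.05, and 2 had a fold above 0 and 4 below. *Pgrmc1*, a heme-binding progesterone receptor membrane component, had a log2 fold change of 0.18 (SE 0.17), or 0.10 to 0.29 with each mouse left out. *Paqr8*, a membrane progestin receptor, had one of -0.49 (SE 0.36), or -0.84 without KO replicates 3 and 4. *Paqr9*, also on this list, had the lowest fold, -0.80 (SE 0.56).

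Known target genes of the receptors were tested for 48 of 71 listed, and 0 were called by edgeR, DESeq2 or limma-voom. Of the 48, 30 had a fold above 0 and 18 below (median 0.06), with 2 higher and 3 lower at an unadjusted p under 0.05, against 3.63% of all genes tested in either direction. The median was 0.03 to 0.13 with each mouse left out. Of 12 estrogen and progesterone receptor targets 5 were tested, 1 above 0 and 4 below, with a median of -0.02. In fits without 1 mouse these 5 split into 2 above and 3 below, except without KO replicate 3 (1 and 4). Among them *Igf1*, a growth factor, had 8.99, 7.84 and 19.1 CPM in WT and 6.61, 6.44, 6.91 and 7.23 CPM in KO mice, without overlap (log2 fold change -0.81, SE 0.35, edgeR adjusted p = 0.999). Without WT replicate 3, its highest mouse, the fold was -0.31. All 15 glucocorticoid receptor targets were tested, 13 above 0 and 2 below, with a median of 0.25 (0.51 without WT replicate 1 and 0.091 without WT replicate 3). In this group *Il1r2*, a decoy receptor for interleukin 1, was at 6.11 to 7.28 CPM in WT and at 8.94, 7.69, 31.2 and 9.22 CPM in KO mice (log2 fold change 1.09, SE 0.47, edgeR adjusted p = 0.999). Without KO replicate 3 the fold was 0.35. *Errfi1*, an inhibitor of EGF receptor signalling, had 5, 3 and 4 reads in WT and 28, 14, 23 and 3 reads in KO mice (log2 fold change 1.73, SE 0.71, edgeR adjusted p = 0.999). It passed the low-count filter only through KO replicates 1, 2 and 3, where it was high, so its fold, counted above, is a description. With 1 mouse left out it could be fitted in 4 of 7 fits, with folds of 1.63 to 2.04. Of 10 LXR targets tested 3 were above 0 and 7, *Nr1h3* again among them, below. Of 11 PPAR targets 7 were above 0 and 4 below.

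The genes whose profile over the 7 mice was nearest to that of *Pgr* were *Gzmb*, *Cd59a*, *Cggbp1*, *Zfp992* and *Prg3*. Likeness was the root mean square distance between z-scores of log2(CPM + 1), and it was 0.0729 for *Gzmb* and 0.229 to 0.276 for the other 4 genes. *Gzmb*, which encodes the protease granzyme B, had 39, 28 and 36 reads in WT and 30, 15, 18 and 18 reads in KO mice. In CPM, as for *Pgr*, WT replicate 3 was its highest mouse and KO replicate 1 the highest of the KO mice. *Prg3*, an eosinophil granule protein, had 32.7, 24.6 and 34.0 CPM in WT and 21.2, 13.5, 10.8 and 19.4 CPM in KO mice. The nearest genes were found by the genotype difference that chose *Pgr*, among other things, so their own folds (-1.04 for *Gzmb*, -0.91 for *Prg3*) are descriptions.

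**Figure D5:**
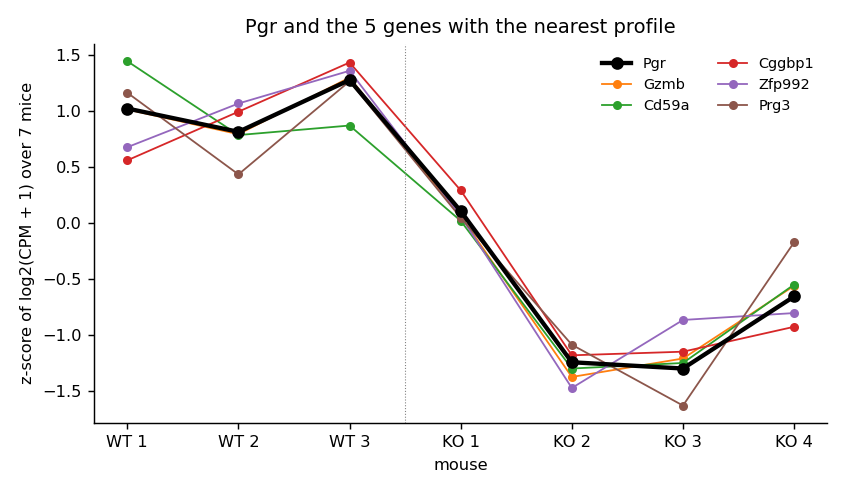
Z-score of log2(CPM + 1) over the 7 mice for *Pgr* and the 5 genes with the nearest profile, with the dotted line between WT and KO mice. *Gzmb*, at a distance of 0.0729, follows *Pgr* most closely.

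*Gzmb* and *Prg3* were both on the list of 15 markers of eosinophil, basophil and mast cell precursors. Of that list 14 were tested, 12 had a fold below 0, and 6, *Gzmb* and *Prg3* among them, had an unadjusted p under 0.05, all lower. Over all 11265 genes tested, 5658 had a fold below 0 and 3.63% had an unadjusted p under 0.05, of which 233 genes were lower. *Gzmb* and *Prg3* had been found by their likeness to *Pgr* and are not independent of its difference. None of the 14 was called by edgeR or limma-voom, and 1, *Slc18a2*, was called by DESeq2. Its summed level was 2965 to 3128 CPM in WT and 2137 to 2939 CPM in KO mice, without overlap. Of 14 macrophage and monocyte markers 11 were below 0, and at an unadjusted p under 0.05 there were 6 lower and 1 higher. Their summed level was 1824 to 1975 CPM in WT and 1792 to 2527 CPM in KO mice. None was called by edgeR or limma-voom, and 1, *C1qc*, was called by DESeq2. This complement gene was at 31.6 to 36.6 CPM in WT and 16.1 to 18.7 CPM in KO mice (edgeR adjusted p = 0.322, 0.0291 by DESeq2, and 0.0251 to 1 over all alternatives). The 12 stem and progenitor markers summed to 1123 to 1291 CPM in WT and 1039 to 1102 CPM in KO mice, again without overlap, and of 11 tested 9 had a fold below 0. The 13 neutrophil precursor markers summed to 16423 to 18806 CPM in WT and 18651 to 34093 CPM in KO mice, with overlap, and 11 of the 13 had a fold above 0 (9 without KO replicate 3). None of the markers in either list was called by edgeR, DESeq2 or limma-voom, and at an unadjusted p under 0.05 there was 1 stem and progenitor marker, lower, and no neutrophil marker. *Gzmb* is also a gene of cytotoxic lymphocytes. The 11 markers of T, NK and innate lymphoid cells summed to 590 to 614 CPM in WT and 483 to 613 CPM in KO mice, with overlap, and 8 of the 11 had a fold below 0, with 1 higher and 1 lower at an unadjusted p under 0.05. Of 9 erythroid markers tested 7 had a fold below 0, and none had an unadjusted p under 0.05. Neither list had a gene called by edgeR, DESeq2 or limma-voom. The part of these cell types in the *Pgr* difference was not tested.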

How the data were processed

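RNA of lin- cells (3 WT and 4 KO mice) was sequenced from the 3′ end, with 1 fragment per transcript. According to the labels and the methods, the authors aligned reads to GRCm38 with STAR and tested genes with DESeq2. The deposited values are raw counts of reads per gene symbol, not normalized. The 5 tally rows were left out: reads on no gene were 27.0% to 31.6% and ambiguous reads 1.99% to 2.40% as the tallies give them. The ribosomal *Rn45s* took 4.94% to 20.6% of reads on genes. The strand counted is not given in the sources used here.

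TMM scaling and CPM were computed with edgeR 4.0.16 (R 4.3.3), as were the filterByExpr filter and the robust quasi-likelihood test, with Benjamini-Hochberg adjustment over 11265 genes. A gene was called at an adjusted p-value under 0.25, the threshold of the study. The biological coefficient of variation was 21.3%. The standard error was the size of the log2 fold change divided by the square root of F. Depth was 3525665 to 5605158 reads on genes per mouse. Nothing states that the mice were from separate litters, and p-values measure the spread between these mice. Within a genotype, no library was a near copy of another by a chi-square test of counts.

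The 10 receptor genes and the lists of other receptors, coregulators, chaperones, ligand supply, receptors outside the nuclear family, targets and cell type markers were chosen with earlier results of these data known. Named are the 10 genes, *Hdgfl2*, other nuclear receptors that passed the filter, any called gene and the 3 genes with the smallest p-value in each list group (5 for a list with 1 group), the 5 genes nearest to *Pgr* in profile, sex-linked genes, *Rn45s* and defining markers. Some genes that this rule names are not reported here. *Slc18a2* was named after its values were seen. Levels of neighbouring receptors are given as log2 ratios of CPM + 0.1 within mice; exact sign-flip tests of them were run and are not used, since the pairs were ranked on the same values. Promoters are RefSeq windows of 300 bases, and gene positions are GENCODE M21 on GRCm38. Alternatives were DESeq2 1.42.0, limma-voom 3.58.1, other scalings, filters and prior counts, removal of *Rn45s*, the replicate number as a block, omission of each mouse and, chosen after seeing the data, omission of KO replicates 3 and 4 together.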

Additional observations from a re-analysis of the deposited data

Results flagged for a closer look

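Among 67 named genes, the 4 KO mice were searched for a mouse far from the 3 others, by a gap above Dixon's 95% critical value, and chance alone gives about 3.35 such genes. There were 3, all in KO replicate 3, and none was 1 of the 10 receptor genes. *Prmt1* was at 521.5 CPM there against 531.2 to 532.1 CPM in the other KO mice, a small gap that passed because those mice nearly agreed. *St13*, an HSP70-interacting cochaperone, was at 171.7 CPM against 104.6 to 112.8 CPM. *Il1r2* was at 31.2 CPM against 7.69 to 9.22 CPM. KO replicate 3 is also the library with 104 CPM of the Y-linked *Ddx3y*, at most 0.777 CPM in the other mice, and with the highest neutrophil precursor sum, 34093 CPM, and the part of either in these values was not tested.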

How the results depend on the processing

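The fold of *Pgr* was below 0 in every fit: from -3.29 to -2.17 with each mouse left out in turn, from -2.79 to -2.25 in the other fits and -2.04 without KO replicates 3 and 4. Every KO mouse lay below every WT mouse, and *Pgr* was chosen by that difference. Leaving mice out could therefore not turn its sign. With at least 10 reads in every library *Pgr* could not be fitted. As a description of the values that chose them, of the 10 receptor genes 0 were called in the fit reported and 1, *Pgr*, without the filter on low counts; with each mouse left out the count was 0 to 1 (1 without KO replicate 1). Over all genes, 2 were called, but 16 by DESeq2, 41 without the filter, 1 with at least 10 reads in every library, and 2 to 7 with each mouse left out (7 without WT replicate 1, 4 without KO replicate 1); under an adjusted p of 0.05 there were 2, but 6 by DESeq2, 19 without the filter, 1 with at least 10 reads in every library and 1 to 5 with each mouse left out. Of the other nuclear receptors, 1 (*Nr4a2*) was called by DESeq2, 1 without the filter and 0 to 1 with each mouse left out. Of the 10 receptor genes, 4 with a fold smaller than its standard error crossed 0 when a mouse was left out: *Ppard* (-0.39 to 0.24), *Rxra* (-0.21 to 0.09), *Rxrb* (-0.08 to 0.06) and *Nr1h2* (-0.02 to 0.30). The median ran from -0.21 to 0.04 for the receptors outside the nuclear family, -0.03 to 0.20 for the other nuclear receptors and -0.05 to 0.07 for the coregulators. Direction also turned for *Abca1* (-0.43, but 0.10 without KO replicates 3 and 4), *Cyp26b1* (-1.45, but -2.01 to 0.14 with each mouse left out; WT replicate 1 held 39 of its 48 WT reads) and the mean log2 ratio of *Thra* over *Nr3c1* (-0.080 to 0.11 with each mouse left out, below 0 without KO replicate 3 or 4); the cause was not tested. The replicate number does not pair the mice: same-numbered mice are different animals and their deviations correlated at -0.02, -0.21 and -0.16. With the replicate block 1 gene was called, 1 was under an adjusted p of 0.05, and the *Pgr* fold was -2.74. Depth limits the low receptors most: *Pgr* rested on 4 to 53 reads per mouse.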
